A study of Homo sapiens with 18 samples.

Results

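The D cyclins, the kinases they activate and the pocket proteins those kinases phosphorylate were followed through 18 arrays of RNA from cells labelled HepG2, a human liver carcinoma line. The 8 genes CCND1, CCND2, CCND3, CDK4, CDK6, RB1, RBL1 and RBL2 were taken by gene symbol, with all 10 of their probes out of 43961 probes on the array and 19782 genes named there. Cells were transfected with a scramble siRNA, with si-PSTAR, which targets a long noncoding RNA, or with si-hnRNP K, which targets the RNA-binding protein encoded by HNRNPK. Each transfection was left untreated or treated for 16 hours with doxorubicin (DOX) at 400 nM, a drug that breaks DNA, so that 6 groups of 3 arrays were compared. All groups are the same cell line and differ in siRNA and drug alone, per the labels. Nothing in the labels ties the 3 arrays of a group to separate cultures. The p-values rest on the scatter of these arrays, possibly technical only, and their number limits the precision.

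D-type cyclins are made in response to growth signals and bind CDK4 or CDK6. The active kinases phosphorylate the pocket proteins RB, p107 (RBL1) and p130 (RBL2), which otherwise hold E2F transcription factors in check. E2F release turns on genes of DNA replication, and p130 with E2F4 and the MuvB core forms the DREAM complex, which represses cell cycle genes in resting or arrested cells. In damaged cells the CDK inhibitor p21, encoded by CDKN1A, restrains cyclin-dependent kinases.

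Upstream sequences are shown for 3 members that were higher with DOX in scramble arrays, CCND3, RBL1 and RBL2, because E2F factors are known to act at the promoter of RBL1. Each run gives the 250 bases before the start used in the RefSeq table of GRCh38.p14, from 5′ to 3′, and capitals mark E2F words.
CCND3 (chr6:42048689-42048938, minus strand): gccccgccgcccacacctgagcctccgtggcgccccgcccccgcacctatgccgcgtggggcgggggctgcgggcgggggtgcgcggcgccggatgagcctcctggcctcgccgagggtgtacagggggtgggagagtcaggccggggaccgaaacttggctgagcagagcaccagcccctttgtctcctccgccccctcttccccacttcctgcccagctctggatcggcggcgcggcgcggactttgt
RBL1 (chr20:37095998-37096247, minus strand): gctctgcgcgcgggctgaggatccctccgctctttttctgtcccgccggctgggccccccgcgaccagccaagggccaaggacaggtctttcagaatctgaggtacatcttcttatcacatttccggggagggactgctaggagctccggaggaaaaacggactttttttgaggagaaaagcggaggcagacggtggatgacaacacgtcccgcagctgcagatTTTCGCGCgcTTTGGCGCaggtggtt
RBL2 (chr16:53434221-53434470, plus strand): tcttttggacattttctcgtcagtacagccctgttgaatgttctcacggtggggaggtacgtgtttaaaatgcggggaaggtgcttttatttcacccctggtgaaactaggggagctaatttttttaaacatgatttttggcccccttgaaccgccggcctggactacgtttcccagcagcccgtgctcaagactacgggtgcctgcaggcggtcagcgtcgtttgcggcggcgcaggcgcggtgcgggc
The E2F words searched on both strands were TTTCCCGC, TTTGGCGC, TTTCGCGC and TTTGCCGC. RBL1 held 2 of them, TTTCGCGC from 26 to 19 bases and TTTGGCGC from 16 to 9 bases before the start, and 2.79% of 35116 such windows held at least 1. The windows of CCND3, CDK4, CDK6 and RBL2 held none of these letters. The GC box GGGCGG, found in 42.6% of windows, occurred 5 times in CCND3 and 3 times each in CDK4 and CDK6. The CCND3 window starts 1347 bases inside the annotated gene. That of RB1 lies 172699 bases inside the gene and is not shown.

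Values are log2 intensities, deposited by the authors. A probe was tested where its mean over all arrays reached the median of all probes, 5.72, which left 21981 probes. Of the 10 member probes, 7 were tested, 1 each for CCND1, CCND3, CDK4, CDK6, RB1, RBL1 and RBL2. Both CCND2 probes and the second RBL1 probe were dimmer. A probe is called at a limma adjusted p under 0.05, over all tested probes of a comparison. Each tested member thus rests on 1 probe, and the level of one probe cannot be set against that of another.

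Some arrays went against their labels or stood apart. HNRNPK, the target of si-hnRNP K, was at 8.18 to 8.46 in the 6 arrays labelled si-PSTAR and at 11.10 to 12.01 in the other 12, including those labelled si-hnRNP K. These values are of its brightest probe. Under the si-hnRNP K label it differed from scramble by -0.17 without DOX (limma adjusted p = 0.254) and was lower by -0.59 with DOX (adjusted p = 6.86e-05). Each direction given here refers to the label an array carries. The 6 untreated arrays of scramble and si-hnRNP K formed 1 cluster, and the other 12 arrays formed another. The lowest correlation across probes was 0.982 within the smaller cluster and 0.962 within the larger, and the highest between them was 0.946. In comparisons that crossed the clusters, the changes on 2 bright probes of the same gene went together less closely. Their correlation across 1169 genes was 0.230 for DOX in scramble, 0.229 for DOX in si-hnRNP K and 0.295 for si-PSTAR without DOX, and from 0.558 to 0.862 in the 5 comparisons within a cluster. Of 7 measured hepatocyte markers, 2 reached the filter, SERPINA1 and ALB, the latter at 6.40 to 8.75. AFP at 5.25 to 5.88, APOA1 at 5.40 to 5.65 and APOB at 5.32 to 5.66 had means below it, which goes against the label of a line known to secrete these proteins. Of the fibroblast genes, DCN ran from 6.43 to 10.17 and COL1A1 from 7.07 to 8.15, and the endothelial gene CDH5 from 5.22 to 8.06. The means of PTPRC, CD3E and COL1A2 over all arrays lay below the filter, with single arrays up to 5.84, 5.75 and 5.90, and the leukocyte gene CD14 reached it.

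**Figure D1:**
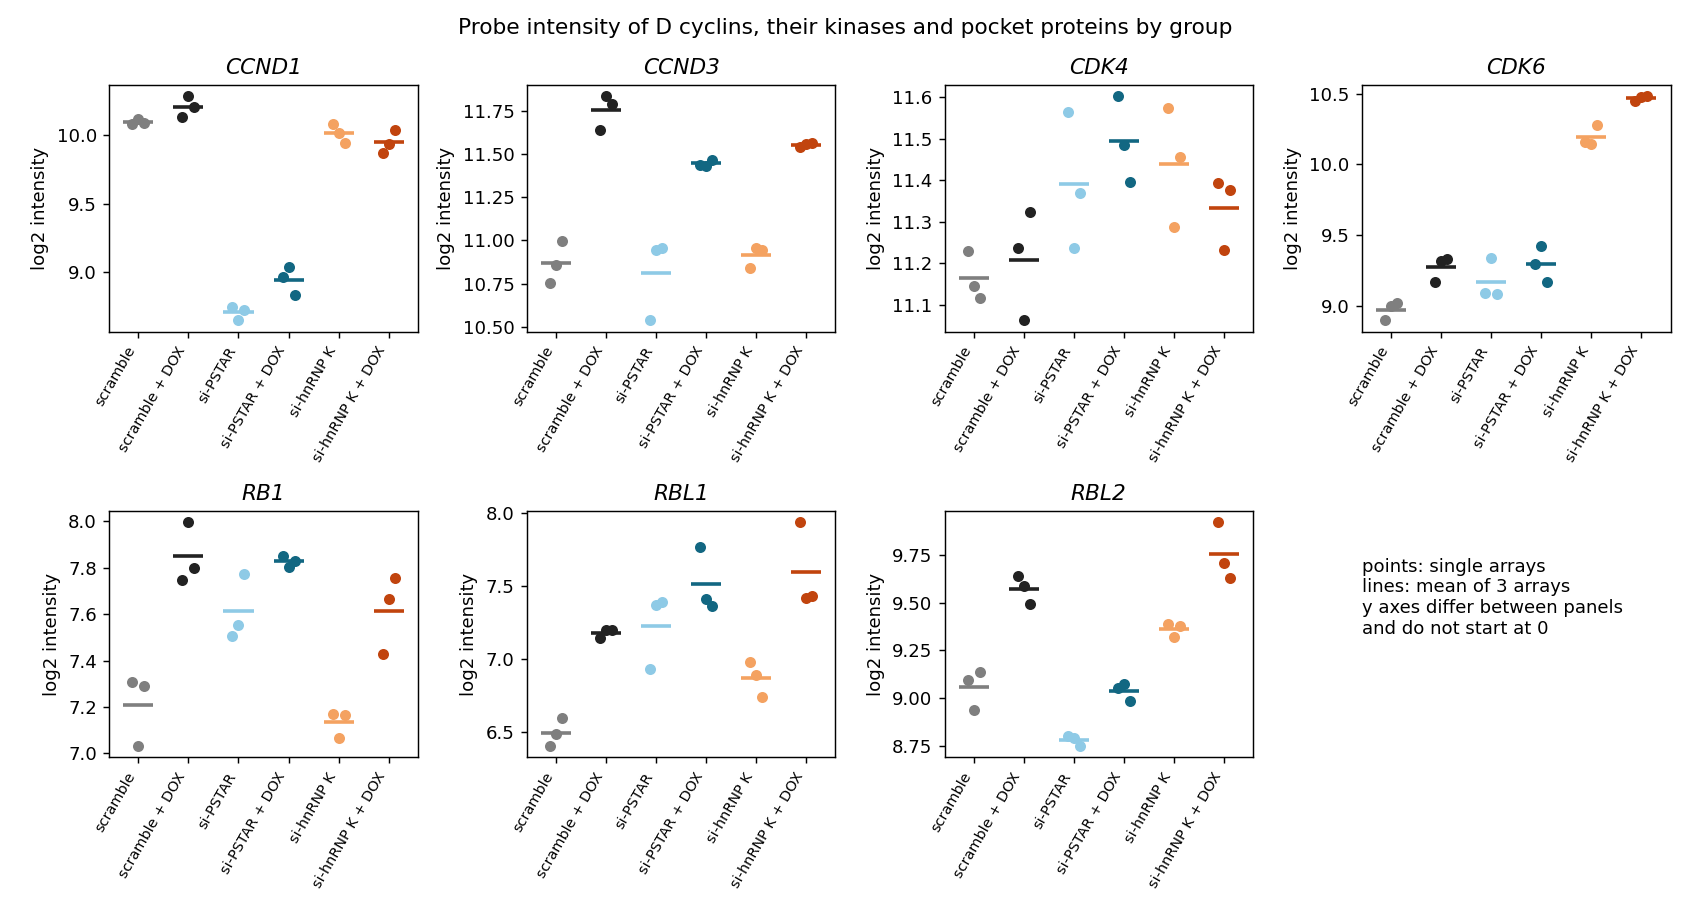
Log2 intensity (y axis, a different range in each panel) of the 7 tested probes in the 6 groups (x axis). Points are single arrays and lines are means of 3. CCND1 is low in both groups labelled si-PSTAR, CDK6 is high in both groups labelled si-hnRNP K, and CCND3 is high in all DOX groups.

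CCND1 encodes cyclin D1. It was lower in arrays labelled si-PSTAR than in scramble arrays, 2.60-fold without DOX and 2.39-fold with DOX. In untreated scramble arrays CCND1 was at 10.08, 10.11 and 10.08, and with DOX at 10.13, 10.28 and 10.20. In arrays labelled si-PSTAR it was at 8.75, 8.65 and 8.73 untreated and at 8.97, 9.04 and 8.84 with DOX. All 6 of these arrays lay below all 12 others. The si-hnRNP K arrays had it at 10.08, 10.01 and 9.94 untreated and at 9.87, 9.93 and 10.03 with DOX, within the range of untreated scramble or below it. The difference from scramble in arrays labelled si-PSTAR was -1.38 ± 0.09 log2 units (SE, 3 arrays a group) without DOX (adjusted p = 1.23e-13) and -1.26 ± 0.09 with DOX (adjusted p = 6.22e-12). The former comparison crosses the clusters and was -1.67 (adjusted p = 2.56e-15) with cyclic loess scaling. Arrays labelled si-hnRNP K differed by -0.08 without DOX (95% interval -0.26 to 0.10, adjusted p = 0.583) and were lower by -0.26 with DOX (adjusted p = 0.0212). That call was lost without DOX-treated scramble replicate 2 (adjusted p = 0.0897), without DOX-treated si-hnRNP K replicate 1 (0.0832) or 2 (0.0559), and in a fit of the compared arrays alone (0.0548). Compared directly under DOX, arrays labelled si-hnRNP K stood 0.995 log2 units above those labelled si-PSTAR (adjusted p = 4.81e-10).

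DOX did not move CCND1 past the threshold in any siRNA group. The difference was 0.11 in scramble (95% interval -0.07 to 0.29, adjusted p = 0.268), 0.24 in si-PSTAR (0.06 to 0.42, adjusted p = 0.0665) and -0.07 in si-hnRNP K (-0.25 to 0.11, adjusted p = 0.539). After cyclic loess scaling, which changes comparisons across the clusters, the scramble value turned to -0.18 (adjusted p = 0.102) and the si-hnRNP K value was called, at -0.32 (adjusted p = 0.00434). The DOX response in si-PSTAR differed from that in scramble by 0.13 (adjusted p = 0.409), or by 0.41 (adjusted p = 0.0104) with cyclic loess. In the order of group means, DOX-treated scramble was highest and untreated si-PSTAR lowest, and the 3 middle groups above si-PSTAR, untreated scramble and both si-hnRNP K groups, overlapped from neighbour to neighbour.

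The gene whose brightest probe followed CCND1 most closely was HNRNPK, with a Pearson r of 0.986 over 18 arrays, ahead of TTL at 0.982 and DYNLT2B at 0.976. These values are descriptions and rest mainly on the gap between the 6 arrays labelled si-PSTAR and the rest. Within the other 12 arrays r between CCND1 and HNRNPK was 0.884, which also carries differences between their groups. Within the 6 it was -0.30. The summed level of the 2 endothelial markers was also lowest in arrays labelled si-PSTAR, at 6.49 to 6.71 log2 units against 7.01 to 8.33 elsewhere. CDH5 alone was low there, with means of 5.35 and 5.44, while PECAM1 had means of 5.72 and 5.83 against 5.70 to 5.76 in the other groups. The summed level of the 3 fibroblast markers was highest in the same arrays, at 10.13 to 10.40 against 8.31 to 9.77. Here DCN alone was high, while COL1A1 had means of 7.74 and 7.18 against 7.98 and 8.06 in scramble, and COL1A2 of 5.57 and 5.66 against 5.76 and 5.73. Their part in the CCND1 difference was not tested.

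**Figure D2:**
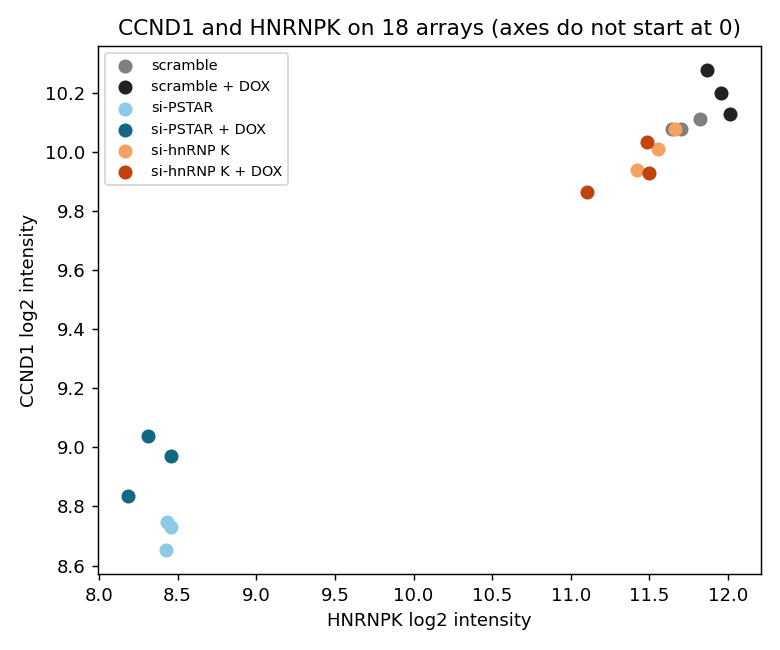
Log2 intensity of CCND1 (y axis) against HNRNPK (x axis), 1 point for each of 18 arrays, coloured by group. The 6 arrays labelled si-PSTAR lie apart at low values of both genes.

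CCND3 encodes cyclin D3, and it rose with DOX in every siRNA group. Untreated scramble arrays had 10.75, 10.86 and 10.99, and DOX-treated ones 11.64, 11.84 and 11.79. Arrays labelled si-PSTAR had 10.54, 10.95 and 10.96 untreated and 11.44, 11.43 and 11.47 with DOX. The si-hnRNP K arrays had 10.84, 10.96 and 10.95 untreated and 11.54, 11.56 and 11.56 with DOX. All 9 treated arrays lay above all 9 untreated ones. The rise was 1.85-fold in scramble (0.89 ± 0.10 log2 units, adjusted p = 2.95e-08), 1.55-fold in si-PSTAR (0.63 ± 0.10, adjusted p = 0.000144) and 1.56-fold in si-hnRNP K (0.64 ± 0.10, adjusted p = 7.5e-06). The si-PSTAR comparison lies within 1 cluster. With cyclic loess the rises were 0.64, 0.62 and 0.42, all still called.

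The untreated groups of CCND3 overlapped, while the treated ones did not. With DOX, arrays labelled si-PSTAR were 1.24-fold below scramble (-0.31 ± 0.10, adjusted p = 0.0166), a call lost without DOX-treated scramble replicate 2 (adjusted p = 0.0711) or 3 (0.0508). Under DOX the si-hnRNP K arrays differed from scramble by -0.20 (95% interval -0.41 to 0.00673, adjusted p = 0.135). The DOX response itself was not shown to differ from scramble, by -0.26 in si-PSTAR (adjusted p = 0.142) and -0.25 in si-hnRNP K (adjusted p = 0.438), although the first reached -0.39 (adjusted p = 0.0118) without untreated si-PSTAR replicate 1. With cyclic loess the first was -0.0226 (adjusted p = 0.922). Over 18 arrays CCND3 was most like TUBG1 (r = 0.949), GALR2 (0.947) and SLC25A42 (0.945).

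CCND2, which encodes cyclin D2, was dim throughout. Its brighter probe ran from 5.50 to 5.92 and its dimmer one from 4.88 to 5.50 over all 18 arrays. With all probes tested, neither was called in any comparison. Whether the gene was silent cannot be read from these values, since no detection measure was used.

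CDK4, a kinase partner of the D cyclins, varied least among the tested members, with all arrays between 11.06 and 11.60. Untreated scramble arrays had 11.23, 11.14 and 11.12, and DOX-treated ones 11.24, 11.06 and 11.32. Arrays labelled si-PSTAR had 11.56, 11.24 and 11.37 untreated and 11.60, 11.49 and 11.39 with DOX. With the si-hnRNP K label the values were 11.57, 11.29 and 11.46 untreated and 11.39, 11.23 and 11.38 with DOX. Each group overlapped its neighbours in the order of means. CDK4 was higher by 0.29 ± 0.10 in DOX-treated arrays labelled si-PSTAR (adjusted p = 0.0269) and by 0.28 ± 0.10 in untreated arrays labelled si-hnRNP K (adjusted p = 0.0456), each against scramble of the same treatment. The first call was lost without DOX-treated scramble replicate 2 (adjusted p = 0.150) or without DOX-treated si-PSTAR replicate 1 (0.119) or 2 (0.0546). The second was lost without any 1 of the untreated scramble arrays (0.0598, 0.113 and 0.136), without untreated si-hnRNP K replicate 1 (0.224) or 3 (0.111), with no filter (0.0695) and with cyclic loess (0.0828). DOX changed CDK4 by 0.04 in scramble (95% interval -0.17 to 0.25), 0.10 in si-PSTAR (-0.11 to 0.31) and -0.10 in si-hnRNP K (-0.31 to 0.11), none of them called. With cyclic loess the last was called, at -0.32 (adjusted p = 0.0162), and the scramble value turned to -0.20 (adjusted p = 0.136).

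CDK6, the other kinase partner, was higher in arrays labelled si-hnRNP K than in scramble, 2.33-fold without DOX and 2.29-fold with DOX. Scramble arrays had 8.90, 9.002 and 9.02 untreated and 9.17, 9.32 and 9.33 with DOX. Arrays labelled si-PSTAR had 9.09, 9.34 and 9.09 untreated and 9.30, 9.42 and 9.17 with DOX, overlapping DOX-treated scramble. Arrays labelled si-hnRNP K had 10.16, 10.15 and 10.28 untreated and 10.45, 10.48 and 10.48 with DOX, all 6 above the other 12. The differences from scramble were 1.22 ± 0.09 (adjusted p = 7.34e-11) and 1.19 ± 0.09 (adjusted p = 1e-10), and that from arrays labelled si-PSTAR under DOX was 1.17 (adjusted p = 9.5e-11). All 3 comparisons lie within a cluster, and cyclic loess left them at 1.19, 1.20 and 1.18. Arrays labelled si-PSTAR differed from scramble by 0.20 without DOX (95% interval 0.00455 to 0.39, adjusted p = 0.068) and by 0.02 with DOX (-0.17 to 0.22, adjusted p = 0.881). The first was called without untreated si-PSTAR replicate 1 (adjusted p = 0.0433) or 3 (0.0484), and turned to -0.0947 (adjusted p = 0.405) with cyclic loess.

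The summed level of 7 hepatocyte markers also stood higher in arrays labelled si-hnRNP K, at 9.31 to 9.51 log2 units against 8.54 to 8.84 elsewhere. Of these, ALB alone, the gene of serum albumin, was high, at 8.39 to 8.75 there and at 6.40 to 7.06 elsewhere. AFP, APOA1 and APOB were dim in all groups. SERPINA1 had means of 5.74 and 5.79 there against 5.77 and 5.84 in scramble. FGB had 5.67 and 5.60 against 5.71 and 5.66, and TF 5.67 and 5.57 against 5.69 and 5.57. The part of these markers in the CDK6 difference was not tested. CDK6 was most like ADAMTS1 (r = 0.984), the U6 RNA gene RNU6-1 (0.980), a member of a family of near-identical copies, and RASD1 (0.978).

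With DOX, CDK6 was higher by 0.30 ± 0.09 in scramble (adjusted p = 0.00752) and by 0.27 ± 0.09 in si-hnRNP K (adjusted p = 0.0162), and differed by 0.13 in si-PSTAR (95% interval -0.07 to 0.32, adjusted p = 0.415). The first 2 cross the clusters, where the median of all tested probes was itself 0.17 and 0.15. With cyclic loess, which brought those medians to 0.02 and 0.02, the differences were 0.00844 (adjusted p = 0.956) and 0.02 (adjusted p = 0.893). The call in si-hnRNP K was also lost without untreated si-hnRNP K replicate 1 (adjusted p = 0.052) or 2 (0.0597).

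The 3 pocket protein genes were each higher with DOX in scramble and in arrays labelled si-hnRNP K. RB1, the gene of the retinoblastoma protein, was at 7.31, 7.03 and 7.29 in untreated scramble arrays and at 7.75, 8.00 and 7.80 with DOX. In arrays labelled si-PSTAR it was at 7.51, 7.55 and 7.77 untreated and at 7.85, 7.80 and 7.83 with DOX. The si-hnRNP K arrays had it at 7.17, 7.07 and 7.17 untreated and at 7.43, 7.67 and 7.75 with DOX. Treated and untreated arrays did not overlap within any siRNA, with the narrowest gap in si-PSTAR. The difference with DOX was 0.64 ± 0.10 in scramble (adjusted p = 7.15e-06), 0.48 ± 0.10 in si-hnRNP K (adjusted p = 0.000325) and 0.22 in si-PSTAR (95% interval 0.00436 to 0.43, adjusted p = 0.170). With cyclic loess the scramble value was 0.32 (adjusted p = 0.0137) and the si-hnRNP K value 0.22 (adjusted p = 0.0951).

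Without DOX, RB1 was 1.32-fold higher in arrays labelled si-PSTAR than in scramble (0.40 ± 0.10, adjusted p = 0.00136), in a comparison across the clusters that fell to 0.08 (adjusted p = 0.515) with cyclic loess. With DOX the difference was -0.02 (95% interval -0.23 to 0.19, adjusted p = 0.910). The DOX response of RB1 was therefore smaller in arrays labelled si-PSTAR, by an interaction of -0.42 ± 0.15 (adjusted p = 0.0180), where 51.1% of all tested probes were called and the median was -0.19. The interaction was -0.09 (adjusted p = 0.679) with cyclic loess. It was not called without untreated scramble replicate 2 (adjusted p = 0.0715), DOX-treated scramble replicate 2 (0.0619) or untreated si-PSTAR replicate 3 (0.0596). Between si-hnRNP K arrays and scramble RB1 differed by -0.07 without DOX (-0.29 to 0.14, adjusted p = 0.689) and -0.23 with DOX (-0.45 to -0.02, adjusted p = 0.0875), the latter called without DOX-treated si-hnRNP K replicate 3 (adjusted p = 0.0471). RB1 was most like IFNGR1 (r = 0.967), PRKAR1A (0.962) and PUS7L (0.950).

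RBL1, the gene of p107, was lowest in untreated scramble arrays, at 6.40, 6.48 and 6.60, below every other array. DOX-treated scramble arrays had 7.14, 7.19 and 7.20. Arrays labelled si-PSTAR had 6.93, 7.36 and 7.39 untreated and 7.77, 7.41 and 7.36 with DOX. These 2 groups overlapped. Under the si-hnRNP K label they were 6.97, 6.89 and 6.74 untreated and 7.94, 7.42 and 7.43 with DOX, and did not overlap. The rise with DOX was 1.61-fold in scramble (0.69 ± 0.13, adjusted p = 7.47e-05) and 1.66-fold in si-hnRNP K (0.73 ± 0.13, adjusted p = 4.68e-05), and the difference in si-PSTAR was 0.29 (95% interval 0.01 to 0.56, adjusted p = 0.159). Cyclic loess gave 0.37 and 0.48 for the rises, both called.

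RBL1 was higher than scramble in both labelled siRNA groups. Without DOX the difference was 0.73 ± 0.13 in arrays labelled si-PSTAR (adjusted p = 2.46e-05), or 0.42 with cyclic loess, and 0.37 ± 0.13 in the si-hnRNP K arrays (adjusted p = 0.0364). With DOX it was 0.33 ± 0.13 (adjusted p = 0.0483) and 0.42 ± 0.13 (adjusted p = 0.0163). Single arrays decided 3 of these calls. The untreated si-hnRNP K call was lost without untreated scramble replicate 1 (adjusted p = 0.134) or 2 (0.0884) or untreated si-hnRNP K replicate 1 (0.147) or 2 (0.0920). The DOX-treated si-PSTAR call was lost without DOX-treated scramble replicate 1 (0.115), 2 (0.0861) or 3 (0.0848), without DOX-treated si-PSTAR replicate 1 (0.280) and with no filter (0.0663). The DOX-treated si-hnRNP K call was lost without DOX-treated scramble replicate 1 (0.0510) or DOX-treated si-hnRNP K replicate 1 (0.169). The interaction of si-PSTAR with DOX was -0.40 (adjusted p = 0.0772), and was called without untreated si-PSTAR replicate 1 (-0.55, adjusted p = 0.0113) or DOX-treated si-PSTAR replicate 1 (-0.53, adjusted p = 0.0221). With cyclic loess it was -0.0658 (adjusted p = 0.822). The second RBL1 probe ran from 5.24 to 5.67 and, with all probes tested, was called only for that interaction (-0.36, adjusted p = 0.0406). RBL1 was most like COA3 (r = 0.963), RFC2, a subunit of the clamp loader of DNA replication (0.947), and TSSC4 (0.933). Its window holds the 2 E2F words shown above, and their part in the RBL1 pattern was not tested.

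RBL2, the gene of p130, differed from scramble in opposite directions under the 2 labels. Scramble arrays had 9.10, 8.94 and 9.14 untreated and 9.64, 9.59 and 9.49 with DOX. Arrays labelled si-PSTAR had 8.80, 8.79 and 8.75 untreated, below all other arrays, and 9.06, 9.08 and 8.99 with DOX. The si-hnRNP K arrays had 9.39, 9.32 and 9.38 untreated and 9.92, 9.71 and 9.63 with DOX. Against scramble, arrays labelled si-PSTAR were lower by -0.28 ± 0.09 without DOX (adjusted p = 0.00893) and 1.45-fold lower with DOX (-0.53 ± 0.09, adjusted p = 2.62e-05). The first comparison crosses the clusters and was -0.57 (adjusted p = 3.48e-06) with cyclic loess. Arrays labelled si-hnRNP K were higher by 0.30 ± 0.09 without DOX (adjusted p = 0.0118), a call lost without untreated scramble replicate 2 (adjusted p = 0.0821). With DOX they differed by 0.18 (95% interval -0.00440 to 0.37, adjusted p = 0.131). Compared directly under DOX, arrays labelled si-hnRNP K were 1.64-fold above those labelled si-PSTAR (adjusted p = 3.49e-07).

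With DOX RBL2 was higher by 0.51 ± 0.09 in scramble (adjusted p = 2.09e-05) and by 0.39 ± 0.09 in si-hnRNP K (adjusted p = 0.000662), and differed by 0.26 in si-PSTAR (95% interval 0.07 to 0.44, adjusted p = 0.0543). The last was called with the filter at the 70th percentile (adjusted p = 0.0346) and over the brightest probe of each gene (0.0436). With cyclic loess the 3 values were 0.22 (adjusted p = 0.0451), 0.14 (0.239) and 0.25 (0.0559). RBL2 was most like MTMR14 (r = 0.962), SLC22A5 (0.953) and CCDC92 (0.953).

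**Figure D3:**
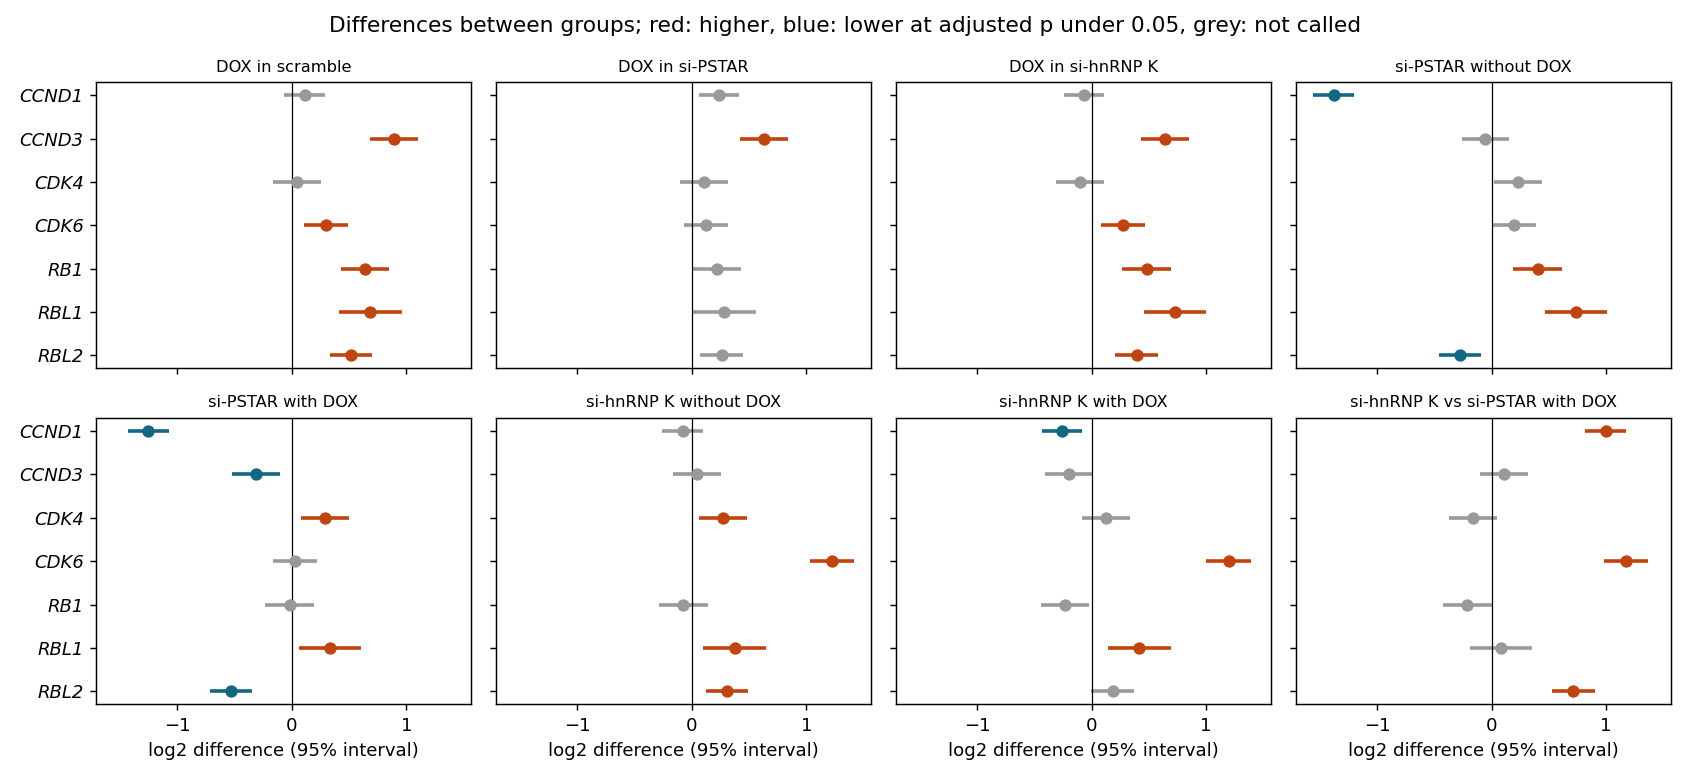
Log2 differences (x axis) of the 7 tested probes (y axis) in 8 comparisons, 1 panel each, with 95% intervals from the fit of all arrays. Red is higher, blue lower at an adjusted p under 0.05 and grey not called. CCND1 lies near -1.3 in both si-PSTAR panels, CDK6 near 1.2 in both si-hnRNP K panels, and CCND3 is red in all 3 DOX panels.

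Counted over the 7 tested members, the comparisons were read against all tested probes. With DOX in scramble 5 members were called, all higher, where 60.7% of all probes were called, 42% higher and 18.6% lower. With DOX in si-hnRNP K 5 were called as well, all higher, against 53.5% called, 36.5% higher and 17% lower. With DOX in si-PSTAR 1 member, CCND3, was called, against 13.9% called, 7.29% higher and 6.61% lower. Treated and untreated arrays did not overlap for 6, 5 and 4 members in scramble, si-hnRNP K and si-PSTAR, and for 67.6%, 61.9% and 27.1% of all tested probes. The members' median difference was 0.51, 0.39 and 0.24, and that of all tested probes 0.17, 0.15 and 0.00359. With cyclic loess 4 members were higher in scramble, while 2 were higher and 2 lower in si-hnRNP K. Of all tested probes, 4016 were then called higher and 5400 lower in scramble, against 9240 and 4098 without that scaling. In si-hnRNP K 3175 were called higher and 4805 lower, against 8020 and 3745 without it.

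Against scramble, arrays labelled si-PSTAR had 2 members higher and 2 lower without DOX, where 64.1% of all probes were called, 39.7% higher and 24.3% lower. With cyclic loess these were 1 and 3, where 5580 of all tested probes were called higher and 7188 lower, against 8734 and 5349 without it. With DOX, arrays labelled si-PSTAR had 2 members higher and 3 lower, against 38.5% called, 20.1% higher and 18.4% lower. That count of 5 became 2 without DOX-treated scramble replicate 2, 3 without replicate 3 and 3 without DOX-treated si-PSTAR replicate 1. The groups did not overlap for 6 members without DOX and 5 with DOX, against 66.2% and 46.7% of all probes. The si-hnRNP K label gave 4 members called without DOX, all higher, against 27.2% called, 13.8% higher and 13.4% lower. Leaving out any 1 array lowered that count to between 1 and 3, with 1 without untreated scramble replicate 2, and 2 without untreated scramble replicate 1 or untreated si-hnRNP K replicate 1. With DOX it gave 2 higher and 1 lower, against 32.8% called, 17.1% higher and 15.7% lower, and 1 call was left without DOX-treated si-hnRNP K replicate 1. In both of these comparisons 4 members did not overlap, against 45.3% and 42% of all probes.

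Between the labelled groups under DOX, CCND1, CDK6 and RBL2 were higher in si-hnRNP K, 3 members against 36.7% of all probes called, 18.3% higher and 18.4% lower. The groups did not overlap for 6 members and for 45% of all probes. Comparisons against scramble of the same treatment share those 3 scramble arrays. The interaction of si-PSTAR with DOX had 1 member called, RB1, lower, against 51.1% called, 17.5% higher and 33.7% lower. It had 0 without untreated or DOX-treated scramble replicate 2 or untreated si-PSTAR replicate 3, 3 without untreated si-PSTAR replicate 1 and 2 without DOX-treated si-PSTAR replicate 1. That of si-hnRNP K with DOX had 0 members called by limma, also 0 at an unadjusted p under 0.05, where 3.59% of all probes were called, 2.5% higher and 1.1% lower.

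The rest of the pathway was taken as 6 lists, 53 of whose genes had a tested probe, each gene by its brightest probe. Among those without one, CCNE2, CCNA1 and E2F8 were dim. List values are given without cyclic loess scaling, also where a comparison crosses the clusters. Of 18 tested E2F target genes of G1 and S phase, 10 rose with DOX in arrays labelled si-PSTAR, against 7.29% of all probes, with a list median of 0.29 against 0.00359 for all probes. Among them were CDC6, which loads the replicative helicase, by 0.85 (adjusted p = 3.56e-06), and RRM2, a ribonucleotide reductase subunit, by 0.71 (adjusted p = 5.35e-05). UHRF1, which maintains DNA methylation, rose by 0.54, with its second probe at 0.09 and not called, and the helicase cofactor CDC45 by 0.48. In scramble 15 rose and 1 fell with DOX, and in si-hnRNP K 14 rose and 1 fell, across the clusters, against 42% and 36.5% of all probes higher and 18.6% and 17% lower. RRM2 rose by 1.26 and 1.06 there, and thymidine kinase TK1 by 1.02 and 0.70. The gene that fell, PCNA, the replication clamp, changed by -3.21 and -2.63 on its brightest probe but by 0.36 and 0.47 on the next.

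Under DOX these target genes were lower in arrays labelled si-hnRNP K than in those labelled si-PSTAR, 11 of 18 lower and 1 higher, against 18.4% and 18.3% of all probes, with a list median of -0.32. CDC6 was 2.35-fold lower (adjusted p = 2.84e-10) and RRM2 2.17-fold lower (adjusted p = 2.05e-09). Against scramble with DOX, 6 were lower in arrays labelled si-hnRNP K, RRM2 by -0.85, MCM5 by -0.56, TK1 by -0.41 and CDT1 by -0.64, against 15.7% of all probes lower. In arrays labelled si-PSTAR 8 were higher and 2 lower, UHRF1 by 0.95 and CDC6 by 0.88 against CDC45 by -0.83 and MCM5 by -0.69, with 20.1% of all probes higher and 18.4% lower. Without DOX, in a comparison that crosses the clusters, 10 were higher and 3 lower in arrays labelled si-PSTAR. MCM4 was higher by 1.05 and CDC6 by 1.02, with 39.7% of all probes higher and 24.3% lower. The widest of these differences was PCNA, at -3.38 on its brightest probe (adjusted p = 8.71e-19) and 1.08 on the next. In those labelled si-hnRNP K 2 were higher and 4 lower, RRM2 by -0.66, with 13.8% and 13.4% of all probes.

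Of 9 tested E2F and DP factors, E2F2 and E2F7 rose with DOX in all 3 siRNA groups, E2F2, an activating member, by 1.12 in scramble, 1.05 in si-PSTAR and 1.07 in si-hnRNP K, and E2F7, a repressor, by 1.17, 0.55 and 1.04. In all 4, 3 and 5 factors rose and 2, 1 and 2 fell, read against the same shares of all probes higher (42%, 7.29% and 36.5%) and lower (18.6%, 6.61% and 17%). E2F1 changed by -0.96 in scramble and -0.65 in si-hnRNP K. These comparisons cross the clusters, where probes of the same gene went together less closely, and E2F1 had only 1 tested probe. E2F5, a partner of the pocket proteins p107 and p130, was lower in arrays labelled si-PSTAR. It was lower by -0.76 without DOX and -0.97 with DOX (adjusted p = 1.69e-06 and 1.19e-07). Of the 9 factors 6 were higher in each of those comparisons, while 2 were lower without DOX and 1 with DOX. Of all probes 39.7% and 20.1% were higher there and 24.3% and 18.4% lower. E2F4, the main partner of p130, was higher by 0.45 in arrays labelled si-hnRNP K, both without DOX (adjusted p = 0.00159) and with DOX (adjusted p = 0.00139). The list went both ways under that label, with 2 factors higher and 3 lower without DOX, and 3 higher and 2 lower with DOX. Of all probes 13.8% and 17.1% were higher there and 13.4% and 15.7% lower. E2F2 was lower, by -0.40 and -0.45. In the MuvB core, RBBP4 was higher in arrays labelled si-hnRNP K by 0.41 and 0.38 (adjusted p = 0.0015 and 0.00247). It was the 1 of 6 genes of its list called in each comparison, where 27.2% and 32.8% of all probes were called. Its other 2 tested probes were called in neither of these comparisons.

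Of 6 tested CDK inhibitors, CDKN1A rose with DOX by 1.64 in scramble, 0.76 in si-PSTAR and 1.55 in si-hnRNP K, and CDKN2B, the gene of p15, a direct inhibitor of CDK4 and CDK6, by 1.05, 0.59 and 0.55. The second CDKN1A probe changed by 1.05, 0.0156 and 0.28, the middle value not called. In all 5, 2 and 4 inhibitors rose and 1, 1 and 0 fell, where 42%, 7.29% and 36.5% of all probes were higher and 18.6%, 6.61% and 17% lower. The 1 that fell in scramble, CDKN2A, changed by -0.73 on its brightest probe but by 0.46 on the next (adjusted p = 0.000325). Under DOX the brightest CDKN1A probe was lower than in scramble in both labelled groups, by -2.50 and -2.13, where the second probe changed by -0.47 and 0.38. Without DOX the brightest probe was also lower in si-PSTAR and si-hnRNP K, by -1.625 and -2.05. The second probe was then higher, by 0.57 and 1.16 (adjusted p = 7.36e-06 and 2.22e-10). With DOX CDKN1B, the gene of p27, was lower than in scramble by -0.39 in si-PSTAR and -0.84 in si-hnRNP K. The second CDKN1B probe changed by 0.19 and 0.20 there, neither called, and by -3.64 with DOX in scramble, opposite to the brighter probe. CDKN2B was lower in arrays labelled si-hnRNP K with DOX on both its bright probes, by -0.83 and -0.92. Against scramble with DOX, 0 inhibitors were higher and 2 lower in si-PSTAR, and 0 and 3 in si-hnRNP K. Of all probes 20.1% and 17.1% were higher there and 18.4% and 15.7% lower. Without DOX 4 were higher and 2 lower in si-PSTAR, and 0 and 4 in si-hnRNP K. Of all probes 39.7% and 13.8% were then higher and 24.3% and 13.4% lower.

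The list of cyclin E, cyclin A and CDK2 held 6 tested genes. Of them 5, 2 and 4 rose with DOX in scramble, si-PSTAR and si-hnRNP K, and 0, 1 and 0 fell. Of all probes 42%, 7.29% and 36.5% were higher there and 18.6%, 6.61% and 17% lower. CDC25A, the phosphatase that activates CDK2, was higher than scramble in all 4 labelled siRNA comparisons. It was higher by 1.002 and 0.64 in si-PSTAR and 0.87 and 0.69 in si-hnRNP K, without and with DOX. Its second probe was higher in all 4 as well, by 0.78, 0.34, 0.63 and 0.45. CCNA2, the gene of cyclin A2, was higher in arrays labelled si-PSTAR, by 0.76 and 0.43, and lower in the si-hnRNP K arrays, by -0.37 and -0.41. With DOX CKS1B was lower by -0.47 in si-PSTAR, and CDK2 by -0.34 in si-hnRNP K. Under the si-PSTAR label 5 of the 6 were higher and 0 lower without DOX, and 3 and 2 with DOX. Of all probes 39.7% and 20.1% were higher there and 24.3% and 18.4% lower. The si-hnRNP K label gave 1 higher and 1 lower without DOX, and 1 and 2 with DOX, against 13.8% and 17.1% of all probes higher and 13.4% and 15.7% lower. Of 8 genes of cyclin D kinase activation and turnover, 5, 0 and 6 rose with DOX in scramble, si-PSTAR and si-hnRNP K. In the same order 1, 4 and 1 fell. Of all probes 42%, 7.29% and 36.5% were higher there and 18.6%, 6.61% and 17% lower. FBXO4 is a ubiquitin ligase subunit reported to act on cyclin D1. It was lower in arrays labelled si-PSTAR by -1.35 without DOX and -1.66 with DOX (adjusted p = 5.94e-12 and 6.8e-13). Its second, dimmer probe differed by -2.13 and -0.19, the latter not called. CCNH, the cyclin of the kinase that activates CDK4 and CDK6, was lower by -0.81 there with DOX, and its second probe by -0.15, not called. With DOX 4 of these 8 were lower and 0 higher in arrays labelled si-PSTAR than in scramble. Of all probes 18.4% were lower there and 20.1% higher. Without DOX, across the clusters, 2 were lower and 3 higher, with 24.3% of all probes lower and 39.7% higher. MNAT1 was lower by -2.18 there, while GSK3B was higher by 0.91 and FBXO31 by 0.68. Under the si-hnRNP K label 3 were higher and 1 lower without DOX, and 2 higher and 0 lower with DOX. Of all probes 13.8% and 17.1% were higher there and 13.4% and 15.7% lower.

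**Figure D4:**
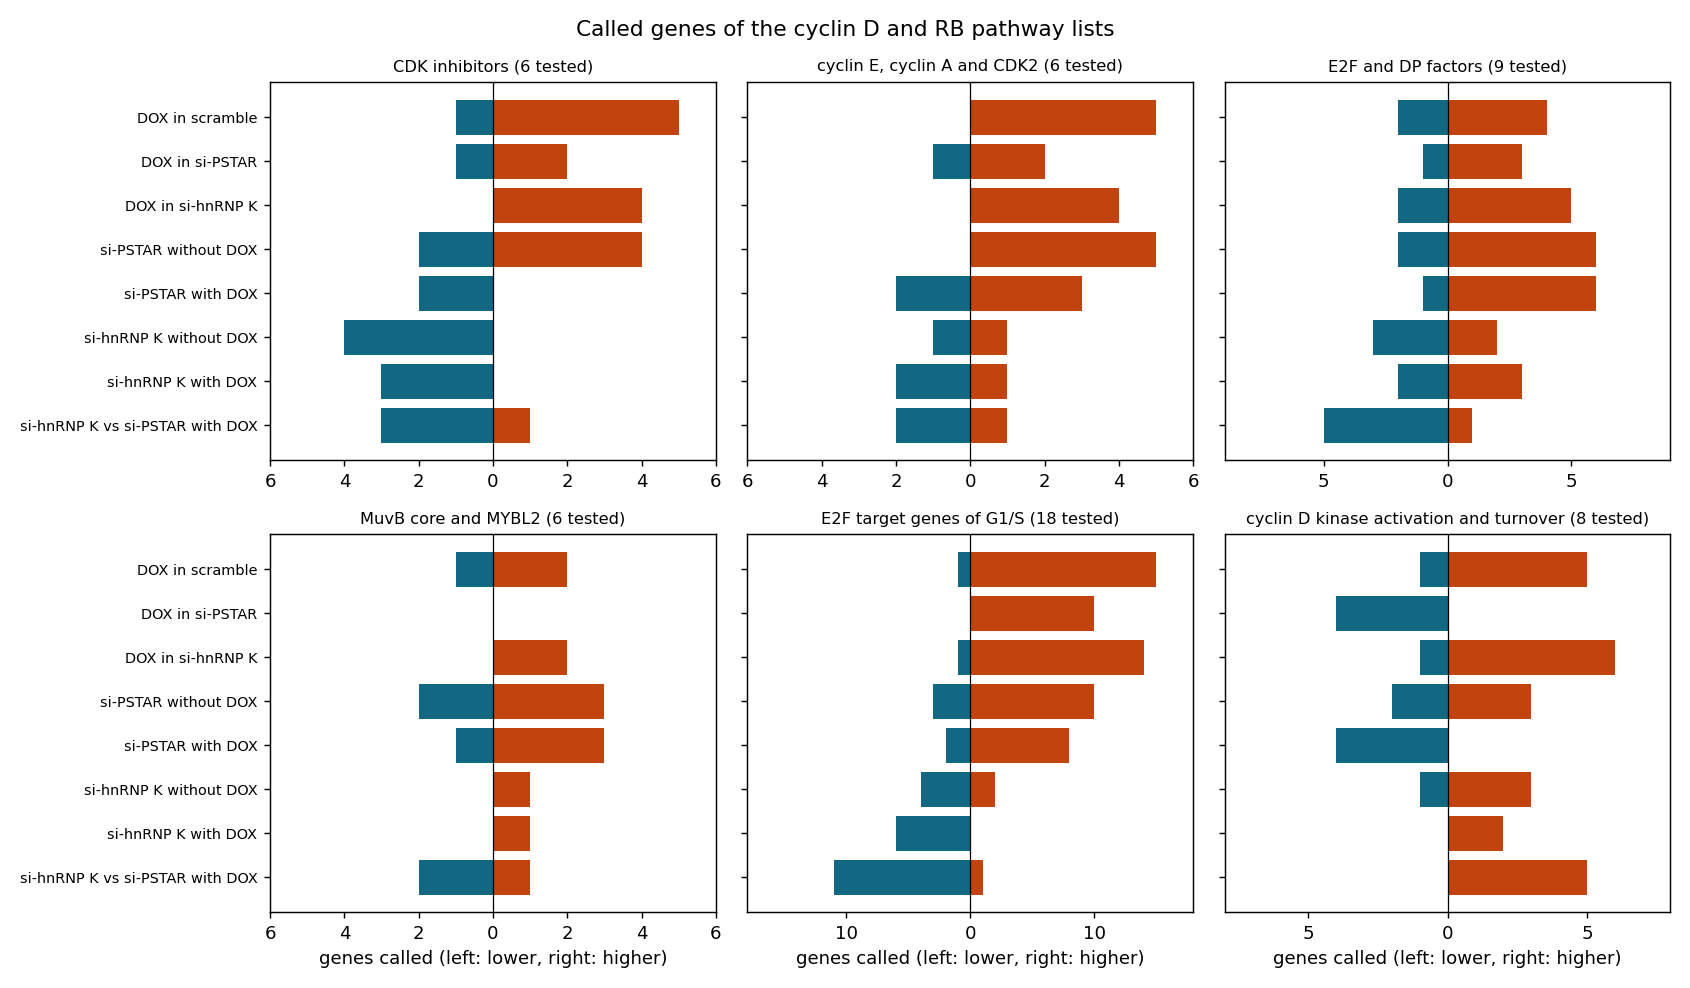
Number of called genes (x axis, lower to the left in blue, higher to the right in red) of 6 pathway lists, 1 panel each, in 8 comparisons (y axis). Of 18 E2F target genes, 10 were higher with DOX in si-PSTAR and 11 lower in si-hnRNP K than in si-PSTAR under DOX.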

How the data were processed

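RNA from 18 Illumina bead arrays, 3 in each of 6 groups, was analysed. The deposited values are log2 intensities, and quantile normalization by the authors was inferred, since the 18 columns, once sorted, lay within 0.01 of each other at 99.9955% of ranks. The software is not given in the sources used here, and no detection p-values were used. Probes were named through the supplied table, 29511 with 1 gene symbol, 0 with several and 14450 with none; symbols brought to RefSeq by gene identifier changed in 0 cases.

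Means of the 6 groups were estimated for the 21981 probes at or above 5.72 with limma 3.58.1 in R 4.3.3 (12 residual and 13.98 prior degrees of freedom). Tests of the 8 comparisons of 2 groups and of 2 interactions were two-sided, and p-values were adjusted by Benjamini-Hochberg over all tested probes. The fit was tested on simulated data. The genes named were all members, HNRNPK, up to 4 genes with the smallest p of each list, and 3 genes most like each member; second probes and marker values by group were added after values were seen. Members and lists were chosen with earlier results of these data known. Alternatives were no filter, a filter at the 70th percentile, the brightest probe of each gene, cyclic loess, centring on the 75th percentile, a replicate block, a fit of only the arrays compared, a prior with trend and robust options, and leaving out each array. Centring on the 75th percentile could hardly change a difference, since the sorted columns were already nearly the same, and is no separate check. Figures used matplotlib 3.10.9.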

Additional observations from a re-analysis of the deposited data

Results flagged for a closer look

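The DOX response of RB1 differed between arrays labelled si-PSTAR and scramble arrays by -0.42 log2 units in the test of the interaction (limma adjusted p = 0.0180). RB1 rose by 0.64 with DOX in scramble and differed by 0.22 in si-PSTAR. All 3 treated arrays lay above all 3 untreated ones in both. The comparison sets arrays of both clusters against each other, and its value with cyclic loess was -0.09.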

How the results depend on the processing

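Cyclic loess had the widest effect, in the comparisons that cross the clusters. It moved the median of all tested probes from 0.17 to 0.02 for DOX in scramble, from 0.15 to 0.02 for DOX in si-hnRNP K, from 0.13 to -0.00202 for si-PSTAR without DOX and from -0.19 to -0.02 for its interaction. The share of calls that were higher went from 69.3% to 42.7%, 68.2% to 39.8%, 62% to 43.7% and 34.1% to 62.4%, and from 69.5% to 81.1% for the si-hnRNP K interaction. With it CCND1 (-0.18) and CDK4 (-0.20) changed sign for DOX in scramble, CDK4 (-0.0119) and CDK6 (-0.0947) for si-PSTAR without DOX, CDK6 (0.11) and RBL2 (0.0318) for the si-PSTAR interaction, where CCND1 was called (0.41, adjusted p = 0.0104), and CDK6 (0.0127) for that of si-hnRNP K. CCND3 was called for si-PSTAR without DOX (-0.30, adjusted p = 0.012). The cause was not tested.

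The count of called members for DOX in si-PSTAR, 1, became 3 with the filter at the 70th percentile, where CCND1 was called (adjusted p = 0.0417), and 2 over the brightest probe of each gene, where fewer probes were tested. Leaving out 1 array at a time gave 5 to 5 called members for DOX in scramble, 1 to 1 in si-PSTAR and 4 to 5 in si-hnRNP K. It gave 4 to 5 for si-PSTAR without DOX, 2 to 5 with DOX, 1 to 3 (4 with all arrays) for si-hnRNP K without DOX, 1 to 4 with DOX, 3 to 3 between the labelled groups and 0 to 3 for the si-PSTAR interaction. CDK4 for si-PSTAR without DOX was called with the filter at the 70th percentile (adjusted p = 0.0433), a trended robust prior (0.0376), and without untreated si-PSTAR replicate 2 (0.0193).

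Differences that were not called and changed sign when 1 array was left out ran from -0.0142 to 0.12 for CDK4 with DOX in scramble, -0.13 to 0.0833 for CCND3 in si-PSTAR without DOX, -0.0394 to 0.086 for CDK6 in si-PSTAR with DOX, -0.0696 to 0.0546 for RB1 in si-PSTAR with DOX, -0.0125 to 0.11 for CCND3 in si-hnRNP K without DOX. The others ran from -0.0887 to 0.21 for RBL1 between the labelled groups, -0.0169 to 0.15 for CDK4 for the si-PSTAR interaction, -0.0787 to 0.0155 for CDK6 for the si-hnRNP K interaction and -0.13 to 0.13 for RBL1 for the si-hnRNP K interaction. None of these was called in either direction. Signal over background, which limits CCND2 and the second RBL1 probe, was not measured.

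Replicate numbers are shared between groups, but same-numbered arrays deviated together with correlations of -0.162 to 0.164, and in no comparison were all above 0.1, so the numbers were not taken as pairs. With a replicate block the counts were 5, 1 and 5 for DOX, 5 and 4 for si-PSTAR, 4 and 3 for si-hnRNP K, 3 between them, and 1 and 0 for the interactions. CDK4 for si-PSTAR without DOX was then called (adjusted p = 0.0322) and RBL1 for si-PSTAR with DOX was not (0.0535).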
